A study of Mus musculus with 36 samples.

Results

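The genes described here are 8 that act in cholesterol synthesis or in its control: Hmgcs1, Idi1, Fdft1, Sqle, Lss, Cyp51, Insig1 and Srebf2. They were taken by gene symbol from both FPKM tables (fragments per kilobase of gene, scaled to library size), in which each symbol occurred once among 23352 entries. Of the 8, 6 encode enzymes of the synthesis route and 2 encode regulators. The set was proposed as synthesis and uptake genes, but it holds no receptor that takes up lipoprotein, so it is called a set of sterol synthesis genes.

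RNA from the apex of the heart was measured in 36 libraries from male C57BL/6J mice aged 11 to 12 weeks and kept in 12 h of light and 12 h of dark. In 18 libraries the hearts were labelled cK15 (KLF15 KO), and 18 control libraries came from mice with the alpha-MHC cre transgene, whose promoter is active in heart muscle cells. The labels do not state whether cK15 mice carry the same transgene or which allele removes Klf15. Hearts were taken every 4 h, from 12 am (midnight) to 8 pm, giving 6 times with 3 libraries of either genotype at each. Klf15, the targeted transcription factor, was at 1.45 ± 0.727 FPKM in control (SD, n = 18) and was listed at 0 in 13 of 18 cK15 libraries, the highest of which reached 0.326.

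Cells make cholesterol from acetyl-CoA by way of mevalonate, farnesyl diphosphate, squalene and lanosterol. The route is controlled by the membrane-bound transcription factor SREBP2 (the product of Srebf2): when sterols are scarce its escort protein SCAP carries it to the Golgi, where it is cut and released to activate the genes of the route. Insig1 encodes a protein of the endoplasmic reticulum that holds SCAP and SREBP back when sterols are plentiful, and is itself a target of SREBP. 

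Start-site sequences are shown for 3 of the members because they hold a sterol-element or E-box pattern. RefSeq windows (GRCm38.p6) were found for 6 of the 8 members: Hmgcs1, Idi1, Lss, Cyp51, Insig1 and Srebf2. The 250 bases before each RefSeq start were searched on both strands for 4 patterns: the core of a sterol regulatory element, the CCAAT box, the E-box and the CACCC box, a pattern that Kruppel-like factors bind. The letters CCAAT were present in 6 of 6 windows, against 33.8% of 32851 windows of the same length over all genes. The matches of Idi1 (at -45 and -14) and Cyp51 (at -29) lie past the GENCODE gene start, within the GENCODE gene model. The sterol-element core, TCACNCCA, was present in 2 of 6, those of Hmgcs1 and Srebf2 (3.67% of all windows), with its first base at -137 and -162 from the start. The E-box letters CACGTG were present in Insig1 alone of the 6, at -101 (6.02% of all windows). The letters CACCC were present in 4 of 6 (52.0% of all windows), and in Hmgcs1 and Srebf2 a match of them overlaps the sterol-element core. These are matches of letters, not measured binding sites. Below, capitals mark matches to the sterol-element core, the E-box and the CCAAT box (read as ATTGG when it lies on the other strand), and each run ends before the first transcript start of either RefSeq or GENCODE. The stretches are chr13:119690101-119690350, plus strand, for Hmgcs1 (250 bases), chr15:82147019-82147180, plus strand, for Srebf2 (162 bases) and chr5:28071162-28071362, plus strand, for Insig1 (201 bases).
Hmgcs1: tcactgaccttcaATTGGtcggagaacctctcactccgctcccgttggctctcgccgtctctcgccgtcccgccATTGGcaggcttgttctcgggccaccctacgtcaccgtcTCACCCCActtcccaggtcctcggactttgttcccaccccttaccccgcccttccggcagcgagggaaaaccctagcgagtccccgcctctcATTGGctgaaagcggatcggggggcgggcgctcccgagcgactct
Srebf2: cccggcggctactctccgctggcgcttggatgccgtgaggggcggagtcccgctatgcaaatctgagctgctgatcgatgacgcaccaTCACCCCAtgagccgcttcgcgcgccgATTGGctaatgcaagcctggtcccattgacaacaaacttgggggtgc
Insig1: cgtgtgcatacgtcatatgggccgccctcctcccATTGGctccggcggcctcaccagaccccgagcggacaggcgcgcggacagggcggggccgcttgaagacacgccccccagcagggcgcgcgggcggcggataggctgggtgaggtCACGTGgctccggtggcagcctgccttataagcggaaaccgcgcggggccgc

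Among the enzymes, Hmgcs1 joins acetoacetyl-CoA and acetyl-CoA into the precursor of mevalonate (chromosome 13, 119690379 to 119708260). Idi1 interconverts the isoprene units that farnesyl diphosphate is built from (chromosome 13, 8885501 to 8892451). Fdft1, squalene synthase, makes the first step that leads to sterols alone (chromosome 14, 63145150 to 63179578). Sqle oxidises squalene (chromosome 15, 59315077 to 59331192), Lss closes the rings to lanosterol (chromosome 10, 76531588 to 76557138) and Cyp51 removes a methyl group from lanosterol (chromosome 5, 4081145 to 4104746). The regulators Insig1 (chromosome 5, 28071363 to 28078662) and Srebf2 (chromosome 15, 82147181 to 82205379) complete the set. Positions are of the GENCODE gene models on GRCm38. Fdft1 overlaps Ctsb by 774 bases and Cyp51 overlaps Akap9 by 166 bases, both on the opposite strand, with Ctsb and Akap9 at means of 161 and 10.9 FPKM. Lss overlaps the antisense gene 4930483K19Rik, at a mean of 0.290 FPKM, by 11268 bases. Srebf2 holds Mir33, which was listed at 0 in these tables. No source used here says whether counting used strand, so reads in these overlaps may be assigned to either gene. Hmgcs1 also overlaps Gm48342 by 6190 bases and Idi1 overlaps Gm48574 by 323 bases, both on the opposite strand. Srebf2 overlaps Gm49502 by 2110 bases on the same strand. None of these Gm genes has an entry in the FPKM tables, so their levels are unknown.

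Fdft1 and Hmgcs1 were the most abundant members per length, and Idi1 the least. Over the 36 libraries Fdft1 was at 18.8 ± 1.67 and Hmgcs1 at 17.3 ± 2.77 FPKM (SD, n = 36), and Fdft1 was the higher in 25 of 36 libraries, so that their ranges overlapped. Insig1 followed at 6.29 ± 1.98, below Hmgcs1 in all 36 libraries, then Cyp51 at 4.32 ± 0.823, below Insig1 in 30 of 36. Srebf2 was at 2.28 ± 0.605, below Cyp51 within each of 36 libraries. Lss was at 1.66 ± 0.430, Sqle at 1.31 ± 0.376 and Idi1 at 0.308 ± 0.177. Srebf2 was above Lss in 32 of 36 and Lss above Sqle in 28 of 36, while Sqle was above Idi1 in each of 36. Ranges over libraries overlapped for all neighbours in this order except Hmgcs1 and Insig1. Relative to its mean, Fdft1 varied least between libraries (coefficient of variation 8.88%) and Idi1 most (57.5%).

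**Figure D1:**
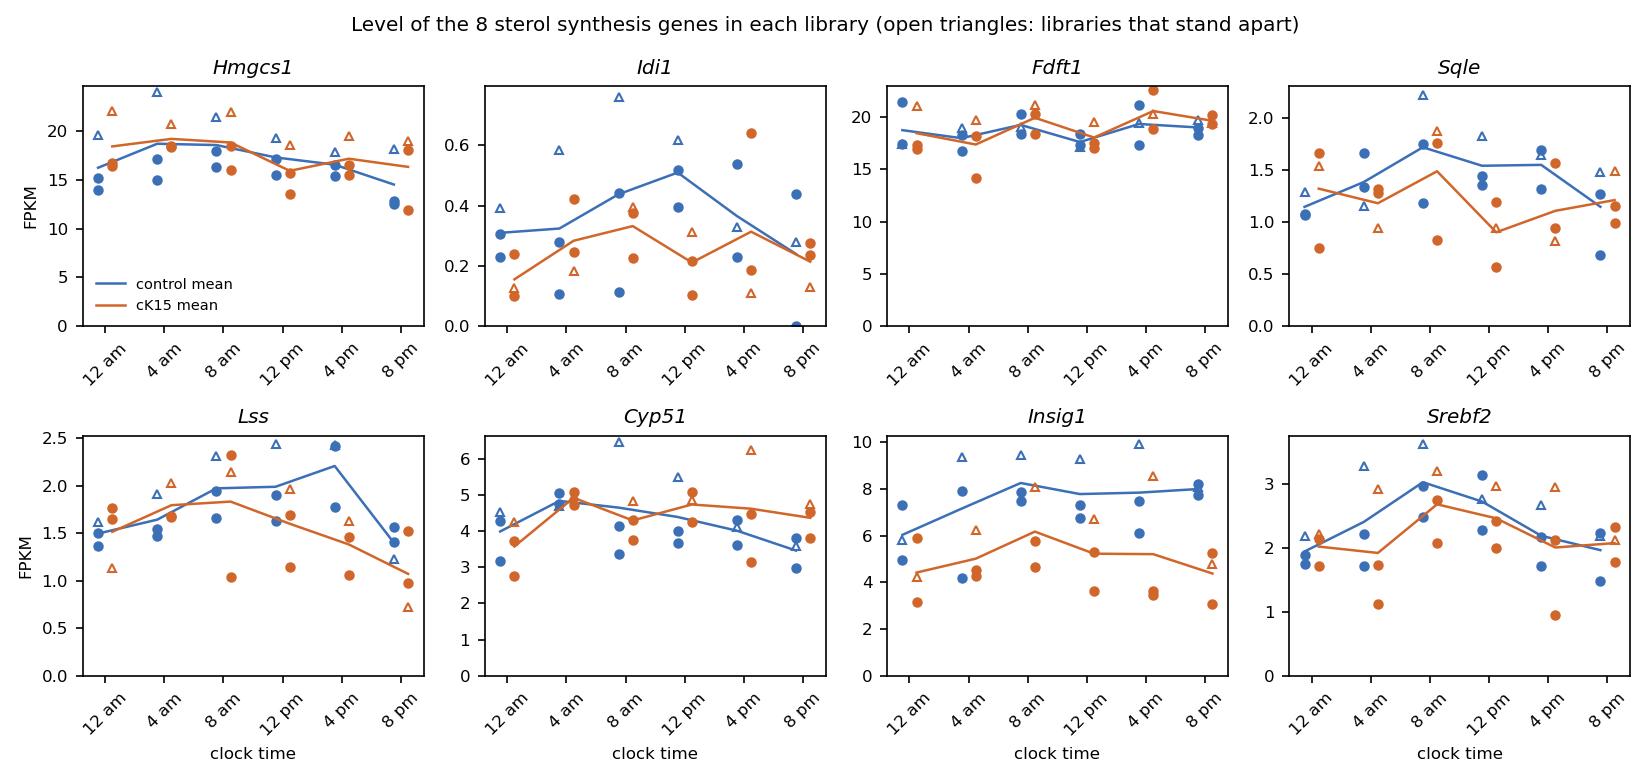
FPKM of each of the 8 genes (panels, vertical axes from 0) by clock time (horizontal axis) in control (blue) and cK15 (orange). Each symbol is a library, lines join the means of 3 libraries, and open triangles are the 12 libraries that stand apart. Insig1 is the panel in which the cK15 mean lies below the control mean at all 6 times by the widest margin, and Hmgcs1 the one in which the open triangle is the highest of its 3 libraries in all 12 groups.

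Insig1 fell in hearts without Klf15, and it was the 1 member of the 8 that passed the threshold for the genotype difference averaged over the 6 times. In control libraries Insig1 was at a lowest of 4.17, a median of 7.61 and a highest of 9.93 FPKM. In cK15 libraries it was at a lowest of 3.09, a median of 4.74 and a highest of 8.54 FPKM. The groups overlapped, with 16 of 18 cK15 libraries below the control median and 5 of 18 below every control library. Mean FPKM fell by 32.5%, from 7.51 ± 1.54 to 5.07 ± 1.58 (SD, n = 18 each). On the scale of log2(FPKM + 1), where the added 1 shrinks changes of weakly expressed genes, the difference was -0.51 (SE 0.11; 95% interval -0.73 to -0.28; limma adjusted p = 0.0019). Over all 10601 genes tested, 11.2% passed the same threshold (adjusted p under 0.05) and 7.19% passed as lower in cK15, so that 1 of 8 members is near the background share. The call was lost when each genotype's replicate number was treated as a random series (limma adjusted p = 0.0829). It was kept with the number as a fixed term (-0.52, limma adjusted p = 0.00305). That fixed term rests the genotype difference on numbers 3 and 4, and does not measure the spread between replicate series.

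The other regulator and the 6 enzymes did not pass. Srebf2, the transcription factor of the route, was at 1.48, 2.23 and 3.62 FPKM in control (lowest, median, highest) and at 0.945, 2.13 and 3.21 in cK15, and the ranges overlapped. Its averaged log2 difference was -0.09 (95% interval -0.27 to 0.10).

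Early in the route, Hmgcs1 was at 12.5, 16.8 and 24.05 FPKM in control and at 11.9, 18.2 and 22.1 in cK15 (lowest, median, highest). Its log2 difference was 0.06 (95% interval -0.09 to 0.20). Idi1 was at 0, 0.361 and 0.759 FPKM in control and at 0.0996, 0.231 and 0.642 in cK15, and 14 of 18 cK15 libraries lay below the control median. The log2 difference of Idi1 was -0.12 (95% interval -0.26 to 0.03), on a level too low for the scale to show its full ratio. The mean FPKM of Idi1 in cK15 was 0.690 of that in control. Idi1 did not pass the filter on low values and was added to the test as a member, and the other 7 passed the filter over the 36 libraries.

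At the squalene steps, Fdft1 was at 16.7, 18.4 and 21.4 FPKM in control and at 14.2, 19.4 and 22.6 in cK15 (lowest, median, highest), with a log2 difference of 0.02 (95% interval -0.07 to 0.11). Its interval is the narrowest of the 8. Sqle was at 0.686, 1.34 and 2.22 FPKM in control and at 0.566, 1.17 and 1.87 in cK15, with a log2 difference of -0.14 (95% interval -0.30 to 0.02; limma adjusted p = 0.306).

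At the lanosterol steps, Lss was at 1.23, 1.64 and 2.44 FPKM in control and at 0.720, 1.64 and 2.32 in cK15 (lowest, median, highest). The medians of Lss were alike, while 6 of 18 cK15 libraries lay below every control library. Its log2 difference was -0.15 (95% interval -0.29 to -0.0012; limma adjusted p = 0.211). Insig1 and Lss were the 2 members at unadjusted p under 0.05, a share to be read against 23.2% of all genes. Cyp51 was at 2.98, 4.13 and 6.45 FPKM in control and at 2.76, 4.50 and 6.24 in cK15, with a log2 difference of 0.06 (95% interval -0.10 to 0.21). Over the 8 members the median log2 difference was -0.10, against -0.01 over all genes tested.

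**Figure D2:**
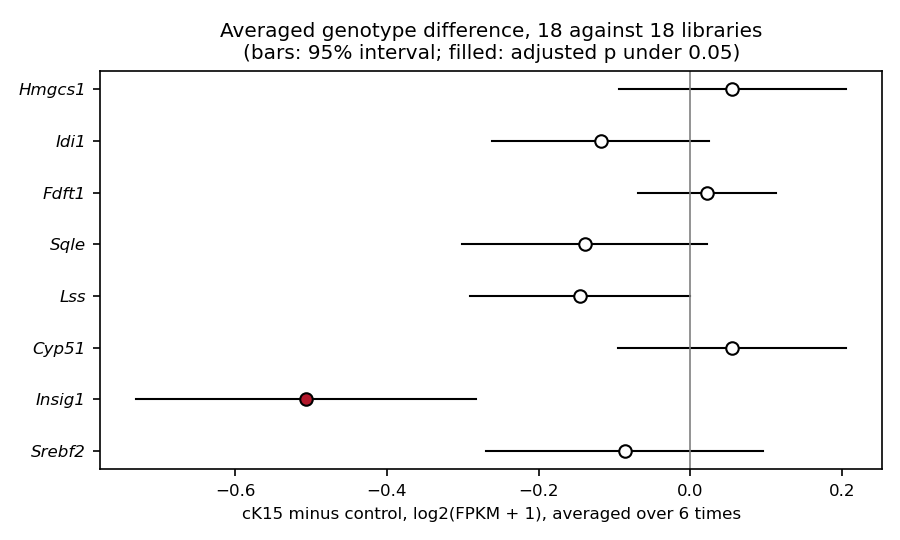
Averaged difference between cK15 and control (horizontal axis, log2(FPKM + 1), 0 marked) for the 8 genes (vertical axis), with points for the estimate and bars for the 95% interval, 18 against 18 libraries. Insig1 at -0.51 is the filled point, and the other intervals reach 0 except that of Lss, which ends just below it.

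The Insig1 mean was lower in cK15 at each of the 6 times, and the libraries separated fully at 12 pm and 8 pm. At 12 am the control libraries were at 5.80, 7.33 and 4.98 FPKM and the cK15 libraries at 4.24, 5.89 and 3.14. At 4 am they were at 9.37, 7.93 and 4.17 against 6.26, 4.27 and 4.52. At 12 am 2 cK15 libraries lay below all control libraries, and at 4 am none did. At 8 am control was at 9.44, 7.48 and 7.85 and cK15 at 8.07, 5.78 and 4.68 FPKM, with 2 cK15 libraries below all control libraries. At 12 pm control was at 9.29, 7.31 and 6.75 and cK15 at 6.73, 3.65 and 5.31 FPKM, a separation by a narrow gap. At 4 pm control was at 9.93, 7.499 and 6.10 and cK15 at 8.54, 3.63 and 3.46 FPKM, again with 2 cK15 libraries below all control libraries. The high cK15 library at 4 pm was replicate 1, which stands apart as described below. At 8 pm control was at 8.20, 7.73 and 8.07 and cK15 at 3.09, 5.25 and 4.80 FPKM, the widest gap of the 6 times.

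The log2 differences of Insig1 ran from -0.39 at 8 am to -0.77 at 8 pm (SE 0.27 each). None of the 48 tests of a member at a single time passed (limma; 4 at unadjusted p under 0.05, namely Insig1 at 4 pm and 8 pm, Sqle at 12 pm and Lss at 4 pm), and the lowest adjusted p was 0.258, for Insig1 at 8 pm. Over all genes the share called was 1.22% at 12 am, 1.13% at 4 am, 1.07% at 8 am, 0.755% at 12 pm, 1.31% at 4 pm and 1.13% at 8 pm. With a term for the libraries that stand apart, Insig1 at 8 pm passed (limma adjusted p = 0.049). The share of all genes called at 8 pm with that term was not computed. In the average over the 6 times, calls over all genes rose with it, from 762 to 1265 lower and from 430 to 904 higher.

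In other members the groups separated at few times. All 3 cK15 libraries lay below all 3 control libraries in 5 of 48 pairs of member and time (6.93% over all genes and times) and above them in 1 (4.17% over all genes and times). The 5 were Insig1 at 12 pm and 8 pm, Idi1 at 12 pm, Sqle at 12 pm and Lss at 4 pm. Sqle at 12 pm was at 1.83, 1.35 and 1.44 FPKM in control and at 0.944, 0.566 and 1.19 in cK15. Lss at 4 pm was at 2.43, 1.78 and 2.42 FPKM in control and at 1.63, 1.06 and 1.46 in cK15. Insig1 separated at 2 of the 6 times and Idi1, Sqle and Lss at 1 each, and these genes overlapped at their other times. The pair above was Cyp51 at 8 pm.

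The study compared the genotypes over the day, and no member passed the test of a 24 h rhythm in either genotype. In control 0 of 8 passed (limma; 2 at unadjusted p under 0.05, Srebf2 and Lss), against 2.74% of 10669 genes called and 13.9% at unadjusted p under 0.05, and in cK15 0 of 8 passed (limma; 0 at unadjusted p under 0.05), against 1.07% of 10518 genes called and 8.94% at unadjusted p under 0.05. Srebf2 in control had the largest amplitude of the 8, 0.23 on the log2 scale, measured from midline to crest (SE 0.069; limma adjusted p = 0.184), with the peak at 9.25 h after midnight (SE 1.16 h). Its control libraries were at 2.18, 1.75 and 1.89 FPKM at 12 am, at 3.27, 1.72 and 2.22 at 4 am and at 3.62, 2.49 and 2.97 at 8 am. They were at 2.76, 2.27 and 3.14 FPKM at 12 pm, at 2.67, 1.72 and 2.17 at 4 pm and at 2.23, 1.48 and 2.18 at 8 pm. The libraries of 8 am, the time of the highest mean, overlapped those of 4 am, 12 pm and 4 pm and lay above those of 12 am and 8 pm. With the replicate number as a fixed term the rhythm of Srebf2 in control passed (limma adjusted p = 0.0308), as it did with a term for the libraries that stand apart (limma adjusted p = 0.0464), and with the number as a random series it did not (limma adjusted p = 0.0557). Calls over all genes in control rose from 292 to 470 with the fixed term, 730 with the term for the libraries that stand apart and 473 with the random series.

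Other members had smaller curves in control. Lss, lanosterol synthase, had an amplitude of 0.18 (SE 0.060; limma adjusted p = 0.247) with its peak at 11.8 h, and Sqle one of 0.17 (SE 0.067) with its peak at 10.4 h. Hmgcs1 had an amplitude of 0.16 (SE 0.067) with its peak at 7.66 h, and passed with the term for the libraries that stand apart (limma adjusted p = 0.0404). With that term 730 genes were called over all genes in control, against 292 in the main fit. Cyp51 had an amplitude of 0.16 (SE 0.070), Insig1 one of 0.14 (SE 0.087) and Idi1 one of 0.12 (SE 0.074). Fdft1, squalene synthase, had the flattest curve, 0.02 (SE 0.041). The median amplitude of the 8 was 0.16, against 0.09 (upper quartile 0.145) over all genes tested in control. An amplitude cannot be negative and is raised by spread between libraries, so a higher median does not show more rhythm.

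In cK15 the amplitudes of the 8 ranged from 0.06 for Idi1 to 0.20 for Lss (SE 0.065 and 0.079). Their median was 0.11, against 0.08 (upper quartile 0.137) over all genes tested, with the same limit. Srebf2 in cK15 had an amplitude of 0.13 (SE 0.097), and its mean was highest at 8 am as in control. The difference in rhythm between genotypes passed for 0 of 8 members (limma; 0 at unadjusted p under 0.05) and for 0% of 10601 genes (291, or 2.75%, at unadjusted p under 0.05).

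**Figure D3:**
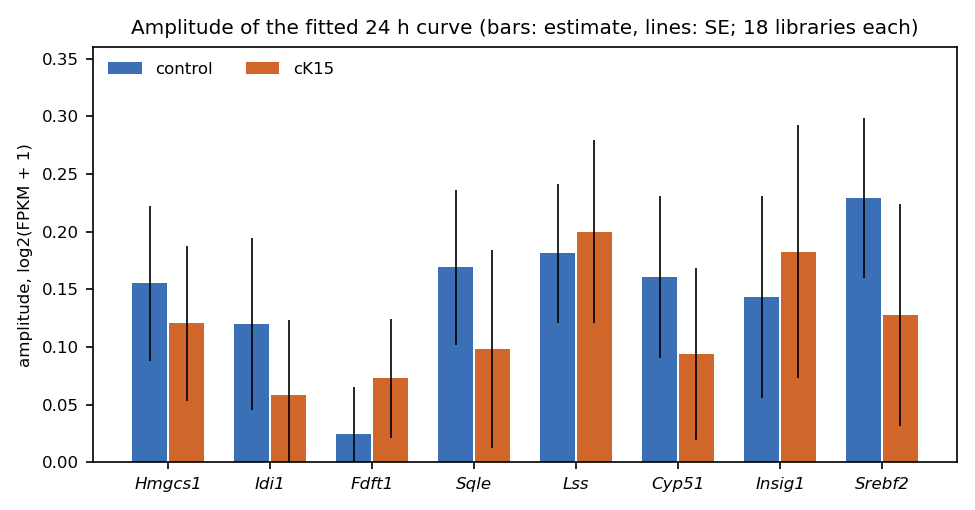
Amplitude of the fitted 24 h curve (vertical axis from 0, log2(FPKM + 1)) of each of the 8 genes (horizontal axis) in control (blue) and cK15 (orange), with lines for the SE and 18 libraries per genotype. Srebf2 in control has the tallest bar, 0.23, and Fdft1 in control the lowest, 0.02.

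Libraries differed within groups in a way the labels do not explain, and Insig1, Hmgcs1, Srebf2 and Cyp51 differed with it more than the other 4 members. In 12 libraries, 1 of every group and so 6 per genotype, the top 10 genes by level made up 16.1% to 17.7% of all FPKM, against 21.7% or more in the other 24. At 8 pm they were the libraries numbered 4, and at the other 5 times control replicate 2 and cK15 replicate 1. Hmgcs1 was the highest of its 3 libraries in this library in 12 of 12 groups, at 20.2 ± 1.88 FPKM in the 12 and 15.9 ± 1.88 in the 24 (SD). Srebf2 was highest there in 9 of 12 groups and lowest in 0, at 2.75 ± 0.494 against 2.05 ± 0.516 FPKM. Insig1 was highest there in 8 of 12 and lowest in 0, Lss in 8, lowest in 3, and Cyp51 in 7, lowest in 1. Fdft1 was highest there in 6 of 12, lowest in 1, and Idi1 and Sqle in 6 each, lowest in 3 each. The share of such counts over all genes was not computed. The log2 difference between the 12 and the 24 was 0.37 for Insig1, 0.33 for Hmgcs1, 0.31 for Srebf2 and 0.23 for Cyp51, and between 0.07 and 0.11 for the other 4, against a median of 0.08 over all genes.

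The lower Insig1 level in cK15 was present in both sets of libraries. In the 12, Insig1 was at 8.65 ± 1.53 FPKM in control and 6.44 ± 1.71 in cK15 (SD, n = 6 each), and in the 24 at 6.94 ± 1.25 and 4.39 ± 1.00 (SD, n = 12 each). In the 24 alone the averaged log2 difference was -0.56 (limma adjusted p = 0.00214). Leaving out any 1 library, or any replicate number of a genotype, kept Insig1 past the threshold, with differences from -0.62 to -0.41.

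The 8 members moved together only loosely from library to library. Over the 36 libraries 26 of the 28 pairs had a positive Pearson r, with a median of 0.25 and a range from -0.23 to 0.50. Over the 24 libraries that do not stand apart, 17 of 28 pairs were positive, with a median of 0.05. These values are descriptions, since points share libraries and their scaling. The 10 genes outside the set whose log2 values followed the mean profile of the 8 most closely over the 36 libraries were Ppap2b, Ets1, Man1c1, Nfat5, Hif1a, Adamts5, Gja1, Rbms3, Slc43a2 and H3f3b, with r from 0.76 to 0.86. Ppap2b, a phosphatase of lipid phosphates, led at 0.86, and Gja1 encodes the gap junction protein connexin 43. The 14 other sterol synthesis enzymes tested were spread through the 10574 genes ranked, from place 40 for Hsd17b7 (r of 0.71) to place 9053 for Pmvk (r of -0.35), with Tm7sf2 at 3615, Acat2 at 4595, Mvk at 5331 and Fdps at 7594. In deviations from the 12 group means the 10 closest were Cpsf6, Ppap2b, Klhl24, Azin1, Zdhhc4, Trim23, Trim33, Taok1, Tpgs2 and Zfp871, with r from 0.89 to 0.90. Myl2, the abundant ventricular myosin light chain, had an r of -0.83 with the same profile. Myl2 is among the top genes whose share sets the 12 libraries apart. It was at 29700 to 35773 FPKM in the 12 and at 43872 to 71845 in the 24, so its r cannot be told apart from that split. Neither ranking was repeated within the 24 libraries. How far the genes named other than Myl2 follow the split between the 12 libraries that stand apart and the 24 was not tested.

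Other enzymes of sterol synthesis were counted from a list of 15, of which 14 passed the filter on low values. This list and those below were chosen with earlier results of these data known, so their counts are descriptions and not tests. In cK15 5 fell and 0 rose, against 7.19% lower and 4.06% higher over all genes, and the median log2 difference of the 14 was -0.18. Those that fell lie both early and late in the route. Acat2, which makes acetoacetyl-CoA, was at 2.19 ± 0.376 in control and 1.65 ± 0.547 FPKM in cK15 (SD, n = 18 each; log2 difference -0.29, SE 0.086; limma adjusted p = 0.0279). Mevalonate kinase, Mvk, was at 6.34 ± 1.16 and 5.09 ± 1.22 FPKM (-0.28, SE 0.089; limma adjusted p = 0.0377). Of the late enzymes, Tm7sf2, a sterol reductase, was at 2.01 ± 0.549 and 1.19 ± 0.634 FPKM (-0.48, SE 0.11; limma adjusted p = 0.00448). Hsd17b7, a ketosteroid reductase of the route, was at 4.32 ± 1.35 and 2.97 ± 1.18 FPKM (-0.44, SE 0.13; limma adjusted p = 0.0301). The fifth, Dhcr7, which makes cholesterol from its last precursor, was at 1.34 ± 0.570 FPKM in control and 0.837 ± 0.442 in cK15. It passed the filter of 1 FPKM through its control libraries, so its call (log2 difference -0.34, SE 0.11; limma adjusted p = 0.0432) adds no support to the count, and without a filter it did not pass (limma adjusted p = 0.068). Fdps, at 32.6 ± 4.07 FPKM in control the most abundant of the list, did not pass (log2 difference -0.05, SE 0.051).

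The count of 5 varied with the libraries used, though Tm7sf2 kept its call in all 42 omissions of a library or replicate number. Tm7sf2 lost its call with the replicate number as a random series (limma adjusted p = 0.198) and as a fixed term (limma adjusted p = 0.065). Over all alternatives and omissions Mvk lost its call in 27 of 52, Hsd17b7 in 17 of 51 and Acat2 in 12 of 51. The count was 0 with the replicate number as a random series and 1 with it as a fixed term. It was 7 with a term for the libraries that stand apart, 3 in the 24 libraries and 2 under quantile normalization. It was 1 without control replicate 2 or without control replicate 3 at all times, and 2 without control replicate 4, cK15 replicate 3 or cK15 replicate 4. Without a single library it was 2 for control replicate 2 at 4 am, 8 am or 4 pm, control replicate 4 at 8 pm, cK15 replicate 4 at 8 am, 12 pm or 4 pm, and cK15 replicate 1 at 8 pm. It was 3 without control replicate 4 at 12 am or 12 pm, control replicate 3 at 4 am or 8 am, control replicate 2 at 12 pm, cK15 replicate 3 at 12 am, or cK15 replicate 4 at 12 am or 4 am.

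Of 20 listed genes of sterol sensing, transport and storage 19 were tested, with 1 higher and 1 lower, against 4.06% higher and 7.19% lower over all genes, and a median log2 difference of -0.0026. Osbp, an oxysterol-binding protein, rose from 19.6 ± 1.37 to 22.5 ± 2.48 FPKM (SD, n = 18 each; 0.19, SE 0.047; limma adjusted p = 0.00824). Npc2, which moves cholesterol out of lysosomes, was lower in cK15, at 13.0 ± 1.63 against 15.3 ± 2.11 FPKM (-0.21, SE 0.066; limma adjusted p = 0.032). The call of Npc2 was lost with both uses of the replicate number (limma adjusted p = 0.333 and 0.0659), and that of Osbp with the random series (limma adjusted p = 0.146). Osbp also lost its call without control replicate 3, cK15 replicate 1 or cK15 replicate 4 at all times (limma adjusted p from 0.0573 to 0.102). Npc2 lost its call without control replicate 2 or 4 or cK15 replicate 3 or 4 at all times (limma adjusted p from 0.0558 to 0.22). It lost it too without single libraries (limma adjusted p from 0.0506 to 0.0588): control replicate 2 at all times but 8 pm, control replicate 4 at 8 pm, cK15 replicate 3 at 12 am, 4 am or 8 am, cK15 replicate 4 at 12 pm or 4 pm, and cK15 replicate 1 at 8 pm. Insig2, the close relative of Insig1, was at 9.10 ± 1.80 FPKM in control and 9.47 ± 1.81 in cK15 (0.05, SE 0.087). Scap, the escort of SREBP, was at 10.2 ± 1.25 and 9.82 ± 1.51 FPKM (-0.05, SE 0.066). In the nonsterol isoprenoid branch 0 of 10 genes passed, with a median of 0.03. Of the 19 genes of sensing, transport and storage, 1 passed the rhythm test in control and 1 in cK15 (2.74% and 1.07% over all genes). Mylip passed in control (limma adjusted p = 0.00729) and not in cK15 (limma adjusted p = 0.0585). Stard3 passed in cK15 (limma adjusted p = 0.0096) and not in control (limma adjusted p = 0.0684). The difference in rhythm between genotypes passed for neither.

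Genes of SREBP1 and fatty acid synthesis, a neighbouring route that shares SCAP and Insig1, had 5 lower and 0 higher of 14 tested (17 listed), against 7.19% lower and 4.06% higher over all genes, with a median log2 difference of -0.16. That list too was chosen with earlier results of these data known, so its count is a description. With the replicate number as a random series 1 of the 5, Scd4, was called. Scd4, a stearoyl-CoA desaturase, dropped in cK15, with 2.93 ± 1.32 FPKM in control and 0.815 ± 0.413 in cK15 (SD, n = 18 each; -1.07, SE 0.13; limma adjusted p = 4.63e-07), and as a member of a family of close copies its value is uncertain. Acaca, acetyl-CoA carboxylase, changed by -0.25 (SE 0.053; limma adjusted p = 0.00121), malic enzyme Me1 by -0.24 (SE 0.060; limma adjusted p = 0.00709) and the desaturase Fads1 by -0.33 (SE 0.093; limma adjusted p = 0.0194). Thrsp had a log2 difference of -0.42 (SE 0.12; limma adjusted p = 0.0234). With the replicate number as a fixed term Thrsp (-0.34, limma adjusted p = 0.114) and Fads1 (-0.28, limma adjusted p = 0.0539) did not pass, and neither did Thrsp in the 24 libraries (-0.27, limma adjusted p = 0.282). The cK15 mean of Scd4 was under the filter of 1 FPKM, and without a filter Scd4 still passed (limma adjusted p = 1.34e-06). Srebf1 itself did not pass (-0.21, SE 0.11; limma adjusted p = 0.272). The count was 8 with a term for the libraries that stand apart, and 3 without cK15 replicate 3 or without cK15 replicate 4. Me1 lost its call without cK15 replicate 3 (limma adjusted p = 0.105), Fads1 without control replicate 2 or cK15 replicate 3 or 4 (0.0871 to 0.135), and Thrsp without control replicate 2 or 3 or cK15 replicate 1 or 4.

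**Figure D4:**
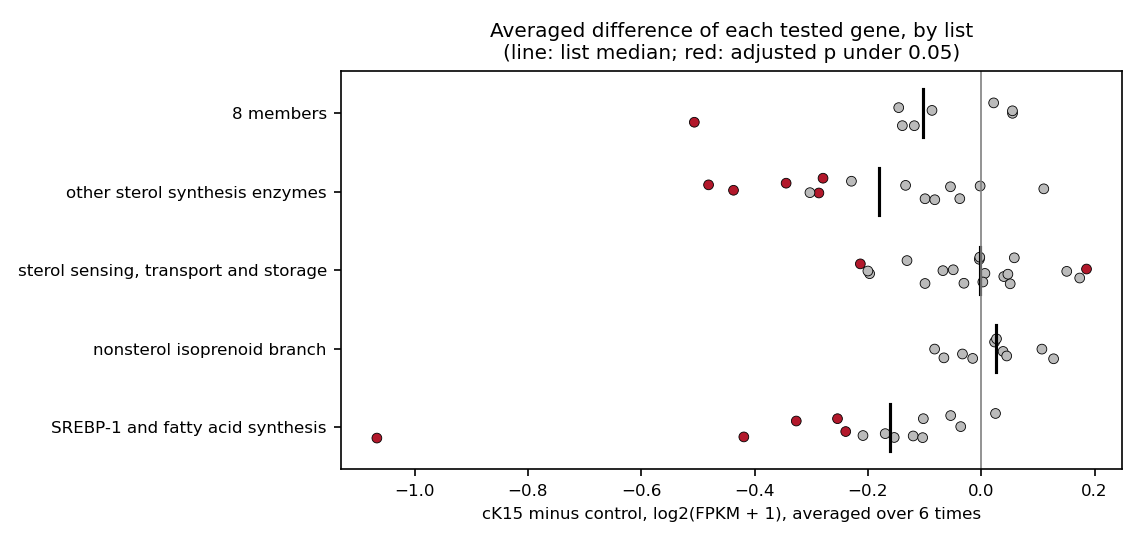
Averaged difference between cK15 and control (horizontal axis, log2(FPKM + 1)) of each tested gene, by list (vertical axis), with black lines for list medians and red for adjusted p under 0.05. The lowest point is Scd4 at -1.07, and the medians of the other sterol synthesis enzymes (-0.18) and of the fatty acid synthesis list (-0.16) lie below that of the 8 members (-0.10).

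Markers of cell types were read beside these differences, and in bulk RNA fewer cells of a type and less RNA per cell cannot be told apart. Cardiomyocyte markers summed to between 48182 and 107370 FPKM over the libraries, with 2 of 8 higher in cK15 (Ryr2 and Ckm). Fibroblast markers had 5 of 6 tested lower in cK15, summing to 1384 to 1748 FPKM in control and 1173 to 1544 in cK15. Macrophage markers had 7 of 9 lower, summing to 179 to 274 FPKM in control and 159 to 252 in cK15. Over all genes 7.19% were called lower and 4.06% higher. With the replicate number as a random series 2 fibroblast and 0 macrophage markers were called lower. The macrophage count was 1 without control replicate 3 or 4, 2 without cK15 replicate 4 and 4 without cK15 replicate 3 at all times. It was also 4 without single libraries: control replicate 3 at 12 am, 8 am or 4 pm, control replicate 4 at 8 pm, cK15 replicate 4 at 12 am or 12 pm, cK15 replicate 3 at 8 am, or cK15 replicate 1 at 4 pm. Endothelial markers had 0 of 7 past the threshold with all 7 signed lower, smooth muscle and pericyte markers 1 of 6 lower, and blood and Schwann and nerve markers 0 of 3 and 0 of 1. All 7 adipocyte and all 7 lymphocyte markers had means below 1 FPKM. The part of fibroblast and macrophage RNA in the lower Insig1, sterol enzyme and fatty acid synthesis values was not tested.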

How the data were processed

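The authors deposited FPKM in 1 table for each genotype. GSNAP, HTSeq and the mm10 build are named per the submitters' processing notes. Their roles and versions and the annotation were not given in the sources used here. Per the labels' protocols, RNA was depleted of ribosomal RNA and sequenced from stranded libraries as 100 bp pairs. FPKM divides by a library total, so abundant genes lower all others. Summed FPKM was 534039 to 691583 per library; depth in reads is unknown, so no counting interval or floor is given, and an exact 0 can be a failed estimate.

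Both tables were compared directly. limma 3.58.1 (R 4.3.3) was fitted to log2(FPKM + 1) of genes averaging 1 FPKM or more in the libraries fitted (members and Klf15 added), with a mean-variance trend and robust moderation. Benjamini-Hochberg adjustment ran over all genes tested, with a threshold of 0.05. Genotypes were compared from 12 group means, and rhythm by a cosine and a sine with a period of 24 h. Labels of 12 am were read as midnight. The fits were run on simulated data with independent noise in each library. Those data held neither the correlation within replicate numbers nor the set of libraries that stand apart, so they test the fits against neither. No label says that replicates are different mice, so each p-value reflects only variation among these libraries, which may be technical. Alternatives were another pseudocount, filters, scalings, variance moderation, replicate blocks, the library set and omissions.

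The members and lists were chosen with earlier results of these data known. Genes named are all members, Klf15, up to 4 called genes per list with the smallest adjusted p, genes overlapping a member, and the 10 closest to the mean profile; Dhcr7, Thrsp, Fdps, Insig2, Scap, Srebf1, Myl2, Ryr2 and Ckm were named after their values were seen. Replicate numbers 3 and 4 occur in both genotypes. Deviations of same-numbered libraries of the 2 genotypes at the same time correlated at 0.157 to 0.508 in all 12 pairs. Crossed numbers correlated at -0.275 to 0.153, so the numbers were taken to pair libraries. The outer ends, 0.508 and -0.275, are both from 8 pm, where number 4 is the library that stands apart in both genotypes. Within a genotype, same-numbered libraries at different times correlated at medians of 0.30 (cK15) and 0.26 (control). Libraries of other numbers did so at medians of -0.22 and -0.24. Deviations within a group sum to 0, which by itself pulls these values below 0. At all times but 8 pm, number 1 in cK15 and number 2 in control are the libraries that stand apart. Within a genotype, likeness by number and likeness by library set were therefore not separated. The main fits held no term for the numbers and treated the 18 libraries of a genotype as independent. The numbers were used as a fixed term, and also as a random series per genotype and number (correlation 0.218). Number 1 occurs in cK15 only and number 2 in control only. With the fixed term, genotype differences therefore rest on numbers 3 and 4.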

Additional observations from a re-analysis of the deposited data

How the results depend on the processing

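Genotype differences were recomputed under up to 10 alternatives and 42 omissions of a library or replicate number, rhythm within a genotype under up to 11 and 21, and the rhythm difference under 11 and 42. A named list gene has fewer where it fell under a filter (Acaca, Acat2, Dhcr7, Hsd17b7, Scd4 and Tm7sf2). The members called on average were 1 in all but the random replicate block, which left 0. The members called over the 6 single times were 0 except with the library-set term, which gave 1 (Insig1 at 8 pm). The share over all genes at single times with that term was not computed. The rhythm calls among members in control were 0 except with the fixed replicate block (1) and the library-set term (2). Over all genes those settings called 470 and 730 in control, against 292 in the main fit. In cK15, and for the difference between genotypes, rhythm calls among members were 0 throughout.

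Signs of members that did not pass were not fixed. Fdft1 turned to -0.027 with the fixed replicate block and -0.023 in the 24 libraries, and ranged from -0.022 to 0.073 over omissions. Hmgcs1 ranged from -0.041 to 0.13 and Srebf2 from -0.22 to 0.039 over omissions, and quantile normalization turned Idi1 to 0.044.

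The count of other sterol enzymes called lower, 5, was 2 with no filter and under quantile normalization, 1 at a mean FPKM of at least 5 (fewer genes tested) and with the fixed replicate block, 0 with the random replicate block, 3 in the 24 libraries, and 1 to 7 over omissions. The fatty acid synthesis count, 5, was 1 with the random replicate block, 8 with the library-set term and 3 to 6 over omissions. For the lists, the library-set term and the 24 libraries were chosen after seeing the data. The cause of the changes was not tested where none is given.

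Over all genes, 430 higher and 762 lower calls became 515 and 687 under median-ratio rescaling, 635 and 605 under quantile normalization, 95 and 253 with the random replicate block, and 904 and 1265 with the library-set term; without control replicate 3, 233 were higher. Rhythmic genes in control, 292, became 473, 470, 730 and 143 with the random block, the fixed block, the library-set term and 6 time means, and 86 to 290 over omissions (149, 86 and 95 without control replicates 2, 3 and 4). In cK15, 113 became 212, 202, 261 and 43, and 33 to 126 over omissions (64, 33 and 36 without replicates 1, 3 and 4, and 74 without replicate 4 at 8 am). For the difference in rhythm, 0 became 1 with the library-set term, 2 in the 24 libraries, 1 with 6 time means and at most 1 over omissions (without cK15 replicate 4). Fibroblast and macrophage markers called lower, 5 and 7, were 2 and 0 with the random block, and macrophage markers 4 with no filter and under quantile normalization and 1 to 7 over omissions, with 1 without control replicate 3 or 4. The blocks changed no other call of a member. Read depth is unknown, so counting error could not be given for any member.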
